A study of Mus musculus with 2 samples.

Results

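Very long genes carry most of their length as intron, and in hippocampal nuclei that intron held 4172 sites of open chromatin seen in both libraries. These sites are replicate 1 peaks on chromosomes 1 to 19 that overlap a replicate 2 peak, with the midpoint inside a GENCODE M21 protein-coding gene record of 500 kb or more, outside all exons and over 2 kb from every annotated transcript start. They were 4172 of the 98902 peaks listed for replicate 1 on all chromosomes, and of the 78761 peaks that both libraries shared on chromosomes 1 to 19. The assay was DNase-seq, in which DNase I, an enzyme, is let into nuclei and cuts DNA that is accessible. The tissue, which the labels call layer of hippocampus, came from female B6CASTF1/J mice aged 8 to 10 months, an F1 cross of a laboratory strain with a wild-derived strain. The labels name no treatment and no control arm, and place all libraries in 1 group, and the 2 libraries, numbered as biological replicates 1 and 2, each come from pooled material of 2 biosamples. Whether the pools came from different animals is not stated in the labels, so the spread between the libraries may be partly technical.

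Many genes of this length act in the nervous system. They encode cell adhesion molecules, ion channels, receptors and scaffolds of the synapse, and their long introns are known to hold enhancers, the distal sequences where transcription factors act on a promoter. Several span common fragile sites, regions that break under replication stress. Such enhancers often contain an E-box bound by basic helix-loop-helix factors of neurons, while CTCF is a zinc finger protein that anchors chromatin loops.

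Each of the following 6 sites is printed because a comparison of strength or motif rests on it. The letters are the plus strand of mm10 (RefSeq GRCm38.p6), 5′ to 3′, and the capitals mark the match of the named motif, on either strand. The first is the strongest site of the set, which has a match of the ETS consensus CCGGAAGT that is not inside a footprint of both libraries. That match lies outside the central 200 bp in which motifs were counted, so this site is not among the ETS sites counted later. The next pair hold the CTCF consensus (CCA, 2 free letters, AG, 2 free letters, GGC). The Kalrn site holds the neuronal E-box CAGATGG, the Ank3 site the RFX consensus (GTTGCC, 2 free letters, GG, 1 free letter, AAC) and the Trpm3 site the MEF2 consensus (CTA, 1 free letter, AAATAG), each inside a footprint of both libraries, as are the CTCF matches. A footprint is a short stretch with few cuts inside an open site, as a bound protein can leave.
Gm20388 record, strongest site, chr8:121585441-121585720: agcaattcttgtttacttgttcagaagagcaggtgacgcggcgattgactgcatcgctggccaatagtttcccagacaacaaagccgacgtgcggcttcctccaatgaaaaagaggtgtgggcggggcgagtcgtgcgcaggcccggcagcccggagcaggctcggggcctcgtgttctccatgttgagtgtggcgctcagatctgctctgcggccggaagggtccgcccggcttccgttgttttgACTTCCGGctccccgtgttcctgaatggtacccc
Camta1, strongest site of the gene, chr4:151141621-151141840: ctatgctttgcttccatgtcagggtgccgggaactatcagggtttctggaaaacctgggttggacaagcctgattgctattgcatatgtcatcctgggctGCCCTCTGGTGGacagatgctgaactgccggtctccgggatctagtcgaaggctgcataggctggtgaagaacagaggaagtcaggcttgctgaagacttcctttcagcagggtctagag
Fgfr2 record, CTCF, chr7:132656121-132656320: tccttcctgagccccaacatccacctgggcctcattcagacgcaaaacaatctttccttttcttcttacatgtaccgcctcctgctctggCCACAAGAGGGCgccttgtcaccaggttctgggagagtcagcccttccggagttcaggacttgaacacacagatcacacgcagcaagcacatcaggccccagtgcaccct
Kalrn, neuronal E-box, chr16:34241981-34242260: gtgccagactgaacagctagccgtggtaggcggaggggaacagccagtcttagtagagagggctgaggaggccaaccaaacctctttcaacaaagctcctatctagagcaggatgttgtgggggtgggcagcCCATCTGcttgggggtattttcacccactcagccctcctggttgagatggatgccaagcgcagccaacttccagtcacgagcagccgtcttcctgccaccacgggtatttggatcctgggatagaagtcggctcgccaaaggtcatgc
Ank3, RFX, chr10:69465661-69465860: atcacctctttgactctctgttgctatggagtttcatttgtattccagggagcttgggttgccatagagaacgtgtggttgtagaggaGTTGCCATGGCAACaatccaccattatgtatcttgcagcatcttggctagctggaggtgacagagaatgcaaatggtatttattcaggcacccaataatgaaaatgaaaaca
Trpm3, MEF2, chr19:22905281-22905520: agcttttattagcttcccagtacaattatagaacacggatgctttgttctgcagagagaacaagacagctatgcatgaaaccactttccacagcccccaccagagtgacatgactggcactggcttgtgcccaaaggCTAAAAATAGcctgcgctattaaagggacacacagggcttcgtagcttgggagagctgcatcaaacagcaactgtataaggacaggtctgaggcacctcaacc
The deposited signal of the Kalrn site was 3.23 (replicate 1) and 3.14 (replicate 2). In the same order the Fgfr2 record's site stood at 1.82 and 3.03, the Ank3 site at 1.54 and 2.43, and the Trpm3 site at 1.70 and 1.82. The deposited signal is the height of a peak, in whole multiples of 1 step per library, and the sources used here do not state its scale.

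The larger peak lists held 98902 peaks in replicate 1 and 130199 in replicate 2, and the median long-gene site stood at 91 steps of signal in replicate 1 and 87 in replicate 2. The weakest sites stood at 29 steps in replicate 1 and 22 in replicate 2. The tissue label was checked against promoters: 8 of 8 markers of excitatory hippocampal neurons had a promoter peak in both libraries, as did 3 of 4 astrocyte, 3 of 4 oligodendrocyte, 1 of 4 interneuron, 1 of 4 microglial, 1 of 4 endothelial and 1 of 3 choroid plexus markers. The tissue is bulk, so the number of cells in which a site is open and the openness per cell cannot be told apart.

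The 4172 sites were spread over 214 of 218 long gene records. Genes with 300 kb or more of eligible intron, of which there were 215, held a median of 16 sites, with quartiles of 10 and 24. Among the gene records with the most sites were Gm20388 with 175, Fgfr2 with 122, Rbfox1 with 59, Dlg2 with 53, Asic2 with 47, Lsamp with 47, Camta1 with 46, Csmd1 with 44 and Nrxn3 with 44. Several act in neurons: Rbfox1 is a splicing regulator, Dlg2 a postsynaptic scaffold, Asic2 an acid-sensing ion channel, Lsamp an adhesion molecule of the IgLON family and Nrxn3 a presynaptic adhesion receptor. The other 4 records had no site of their own: Skint5, a gene of the skin and thymus with 515 kb of eligible intron, and Schip1, Gm37013 and Gm37388, whose introns lie inside longer records.

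Some long records are not single genes in the usual sense. A total of 7 records contain 3 or more other protein-coding records, namely Gm20388 with 71, Gm42416 with 36, Gm37013 with 33, Gm37388 with 31, Fgfr2 with 29, Gm37240 with 6 and Camta1 with 4. They held 387 of the sites. Of 27 transcripts of Fgfr2, a fibroblast growth factor receptor gene, 1 reached 500 kb. In all, 190 sites (4.55%) also lay inside a shorter protein-coding record, 28 lay in more than 1 long record and 49 overlapped another replicate 1 peak.

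Per megabase, long genes had fewer open intronic sites than shorter genes. Within quintiles of base composition they had more than genes under 100 kb, and about as many as genes of 100 to 500 kb or slightly more. Over 174 Mb of eligible intron, long genes had 24.0 shared sites per Mb, against 30.7 in genes of 100 to 500 kb and 27.5 in genes under 100 kb. In the libraries' own lists the long-gene density was 28.5 sites per Mb in replicate 1 and 44.7 in replicate 2. The ratio to all shorter genes together, at 29.4 shared sites per Mb, was 0.817 for shared sites. It was below 1 in both libraries, at 0.811 in replicate 1 and 0.883 in replicate 2, or 0.847 ± 0.051 (SD, n = 2). The long introns were poorer in G and C, with a GC content of 40.3% against 42.6% in genes of 100 to 500 kb and 44.1% in genes under 100 kb.

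**Figure D1:**
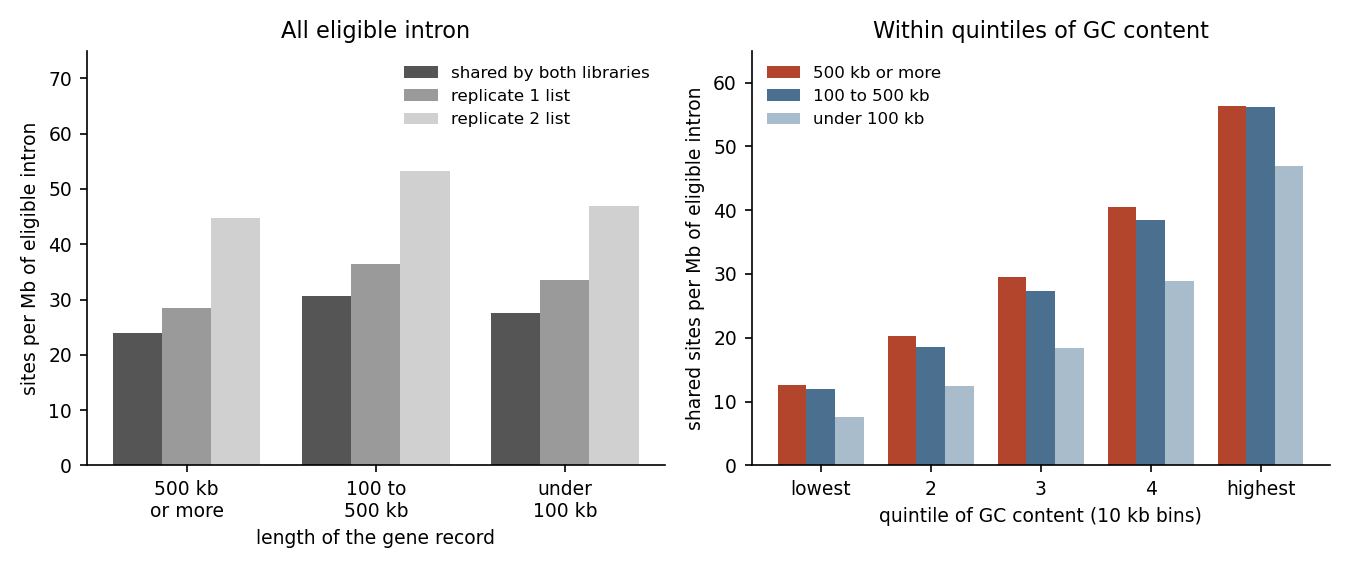
The left bars give sites per Mb of eligible intron by length of the gene record, for shared sites and for each library's own list, and the right bars give shared sites per Mb in the same 3 length classes within quintiles of the GC content of 10 kb bins. Long genes stand lower on the left at 24.0 sites per Mb. On the right they stand above genes under 100 kb in each quintile and close to genes of 100 to 500 kb, at 56.3 against 56.1 in the highest quintile.

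When intron was divided into quintiles by the GC content of 10 kb bins, the order against all shorter genes together turned round in every quintile. In the lowest quintile, at most 38.7% GC, long genes had 12.5 sites per Mb, against 10.5 in shorter genes. The pairs were 20.2 against 16.4 in the next, 29.5 against 24.1 in the middle, 40.6 against 34.5 in the fourth and 56.3 against 51.2 in the highest. The ratios over the libraries were 1.21 ± 0.066, 1.23 ± 0.033, 1.21 ± 0.056, 1.16 ± 0.024 and 1.08 ± 0.0045 from the lowest to the highest quintile (SD, n = 2). Long introns had 37.9% of their bases in the lowest quintile and 6.80% in the highest, whereas shorter-gene introns had 14.8% and 23.8%. Long introns held 4172 shared sites, against 3510 that the same bases would hold at the density of shorter genes in each GC quintile. That is a ratio of 1.19, and 1.185 ± 0.006 over the libraries (SD, n = 2). Without the 7 records that contain other genes, the ratio was 1.20 over all quintiles and 1.02 in the highest. Most of this excess was over genes under 100 kb. Against genes of 100 to 500 kb alone, the ratio over all quintiles was 1.06 for shared sites and 1.062 ± 0.003 over the libraries, and against genes under 100 kb it was 1.49 and 1.469 ± 0.013 (SD, n = 2). Within quintiles the ratio to genes of 100 to 500 kb for shared sites was 1.05, 1.09, 1.08, 1.05 and 1.00 from low to high GC. In the highest quintile it was 1.01 in replicate 1 and 0.987 in replicate 2, and 0.932 for shared sites without the 7 records. With all sites counted but only the bases outside repeats as the length, long genes still had fewer sites per Mb. The values were 33.8 against 41.5, a ratio of 0.814. Division by GC content and by class was chosen after seeing the data.

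Among the long genes themselves, site density ran with GC content. Across the 215 genes with 300 kb or more of eligible intron the density had a median of 22.9 sites per Mb, with quartiles of 13.7 and 33.2 and a highest value of 65.8. Over these genes the Spearman correlation of density with GC content was 0.753, with the repeat-masked share -0.728 and with gene length -0.134, while GC content and repeats belong to the same sequence. Density in replicate 1 and in replicate 2 had a Spearman correlation of 0.920 over the same genes. Genes are not independent replicates, and the libraries share most of their sites. When genes were put in quintiles by GC content, 43 to a quintile, the pooled density was 11.9, 16.9, 23.7, 30.0 and 41.1 sites per Mb from low to high GC. Genes of 1 Mb or more had a median of 21.5 sites per Mb (n = 55) and genes of 500 kb to 1 Mb 23.6 (n = 160).

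The densest genes were Kirrel3 at 65.8 sites per Mb, Kalrn at 63.2, St6galnac3 at 62.7, Nav2 at 60.2, Ank3 at 58.6, Slit3 at 58.0, Dscam at 56.5, Camta1 at 53.7, Gm20388 at 53.6 and Pard3 at 51.2. Kirrel3 is an adhesion molecule of hippocampal synapses, Kalrn a guanine nucleotide exchange factor of dendritic spines, Ank3 the ankyrin of the axon initial segment, Slit3 a guidance ligand and Dscam a guidance and adhesion receptor. At the other end, Skint5 had 0 sites per Mb, Malrd1 1.41, Mgat4c 1.47, Galnt13 1.51 and Foxp2 2.00. These rest on 0 or 1 shared site and depended on the library. Malrd1 had 1 site in replicate 1 and 5 in replicate 2, Mgat4c 2 and 7, Galnt13 2 and 9, Foxp2 2 and 8, and Skint5 0 and 1. In replicate 2 alone the density was 7.06 sites per Mb in Malrd1, 10.3 in Mgat4c, 13.6 in Galnt13 and 16.0 in Foxp2, against 44.7 over all long genes. Mgat4c and Galnt13 encode glycosyltransferases and Foxp2 a forkhead transcription factor. The shared Foxp2 site lay 23.8 kb from the 5′ end, with signal values of 0.297 (replicate 1) and 0.580 (replicate 2). The Foxp2 promoter was itself open, with 0.994 and 1.45 in the same order, and so were those of Galnt13 (1.09 and 1.58) and Mgat4c (1.00 and 1.41).

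**Figure D2:**
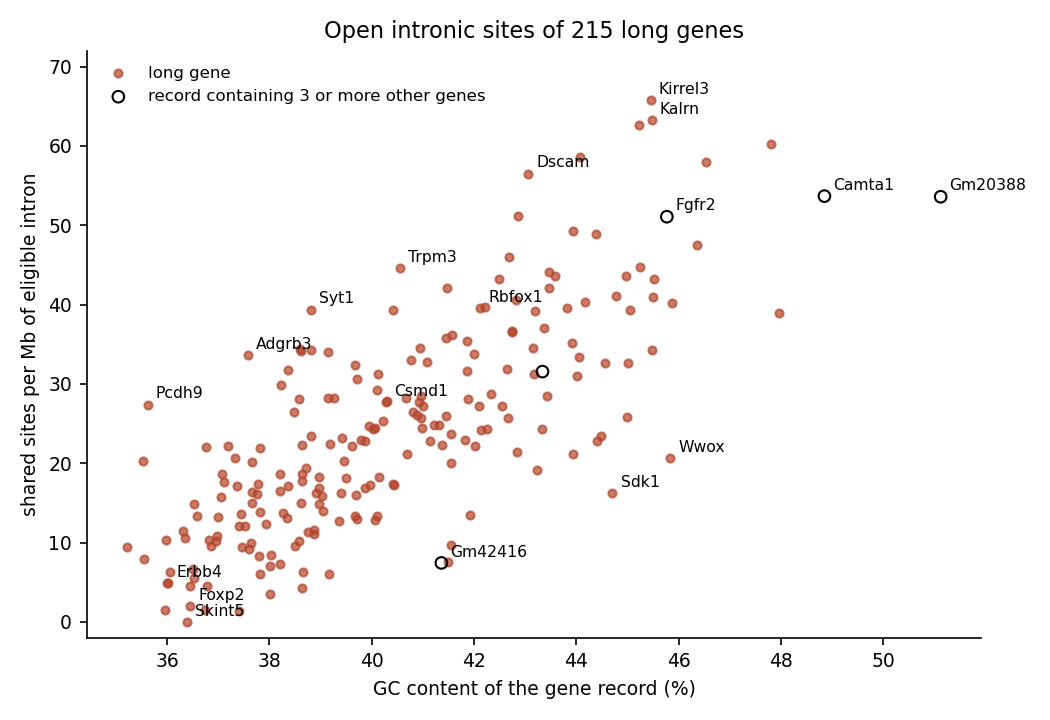
Each point is 1 of 215 long genes with 300 kb or more of eligible intron, with the GC content of the gene record (%) on the x axis and shared sites per Mb of eligible intron on the y axis. Density climbs from low to high GC, with Adgrb3 and Pcdh9 far above, and Sdk1 and Wwox far below, other genes of like GC content.

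Set against introns of all shorter genes together in the same GC quintiles, other genes stood highest. The density was above that of shorter genes in both libraries in 129 of 215 genes (60.0%) and below it in both in 57 (26.5%), and the median ratio was 1.16. The genes in this paragraph were chosen after their values were seen. Adgrb3, an adhesion G protein-coupled receptor of synapses, had 21 sites, against 7.73 at shorter-gene density, a ratio of 2.72 (exact Poisson 95% interval 1.68 to 4.15). Syt1, the calcium sensor of transmitter release, had 19 sites against 7.37, a ratio of 2.58 (1.55 to 4.03). Next came Rabgap1l, which is in none of the role lists, at 2.55 (1.46 to 4.14), and the protocadherin Pcdh9 at 2.51 (1.59 to 3.77). The zinc finger factor Zbtb20 had a ratio of 2.35, the guidance receptor Robo1 2.34, Arhgap15, a gene of the list of other tissues, 2.32, the catenin Ctnna2 2.28, Dlg2 2.27 and Trpm3 2.26. Over the libraries these ratios were 2.24 ± 0.094 for Adgrb3, 2.36 ± 0.076 for Syt1, 2.29 ± 0.010 for Rabgap1l, 2.36 ± 0.072 for Pcdh9, 2.47 ± 0.67 for Zbtb20 and 2.01 ± 0.55 for Trpm3 (SD, n = 2). Kirrel3, the densest gene, had a ratio of 1.72. Wwox, a fragile site gene of high GC content, had 18 sites against 35.6, a ratio of 0.51 (0.54 ± 0.10), and the adhesion molecule Sdk1 15 against 32.7, a ratio of 0.46 (0.58 ± 0.11). The presynaptic scaffold Rims1 had 2 sites against 6.45, a ratio of 0.31, which was 0.53 in replicate 1 and 0.74 in replicate 2. The intervals cover counting error only, and their lower bound was above 1 in 42 genes and their upper bound below 1 in 11.

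By role, guidance and IgLON adhesion genes had the highest ratios to shorter-gene density among the 12 lists, on the mean over the libraries. All 11 long axon guidance genes, receptors, ligands and navigator proteins such as Robo1, Slit3 and Nav2, were above shorter-gene density in both libraries, beside 60.0% of all long genes. Together they had 251 sites, 32.3 per Mb, and a ratio of 1.41 ± 0.081 over the libraries (SD, n = 2 here and for the other lists). Dab1, the adaptor of reelin signalling, held 40 of these sites and Nav2 36. The 4 IgLON genes, led by Lsamp with 47 sites and Ntm with 43, had 27.3 sites per Mb. Their ratio was 1.53 for shared sites and 1.68 ± 0.092 over the libraries, with all 4 above shorter-gene density in both libraries. Opcml, 1 of the 4, had a ratio of 1.15 for shared sites, 1.98 in replicate 1 and 1.36 in replicate 2.

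Lists of synaptic genes had lower ratios than these. Of all long genes compared, 60.0% were above and 26.5% below shorter-gene density in both libraries, and the ratio over all long genes was 1.185 ± 0.006. In the 28 synaptic adhesion genes, 18 were above and 6 below shorter-gene density in both libraries, with 21.1 sites per Mb and a ratio of 1.23 ± 0.047. Nrxn3 held 44 of their sites and Kirrel3 34, while Cntnap5b had the lowest density at 7.34 per Mb. Of the 13 glutamate receptor and postsynaptic scaffold genes, 9 were above and 2 below, with 23.9 sites per Mb and a ratio of 1.32 ± 0.064, and Dlg2 with 53 sites and Magi2 with 40 led them. The 9 presynaptic release genes, led by Nrxn3 and then Ptprd with 29 sites, had 20.1 sites per Mb and a ratio of 1.31 ± 0.044, with 6 above and 1 below. The 9 cadherins and catenins split evenly, with 3 above and 3 below and a ratio of 1.16 ± 0.063, and ranged from 4.55 sites per Mb in Cdh12 to 40.2 in Cdh13. Cdh13 held 40 sites and Ctnna2 35.

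Among signalling and regulatory genes, the 19 ion channel genes had 25.7 sites per Mb and a ratio of 1.15 ± 0.020, with 13 above and 3 below, led by Asic2 and by Trpm3 with 36 sites. The 20 genes of intracellular signalling had 25.7 sites per Mb, of which the Fgfr2 record gave 122 sites, and 21.7 without that record, when Pde4d with 35 sites led. Their ratio was 1.17 ± 0.031, with 11 above and 7 below. The 18 genes of transcription and RNA-binding factors had 29.2 sites per Mb, or 27.5 without Camta1, and a ratio of 1.14 ± 0.084, with 9 above and 7 below. They ran from 2.00 sites per Mb in Foxp2 to 53.7 in Camta1, and Rbfox1 held the most. The 3 neuregulin and ErbB genes had 13.4 sites per Mb and a ratio of 1.07 ± 0.007, 2 above and 1 below, with 24 sites in the ligand Nrg1, 13 in the ligand Nrg3 and 5 in their receptor Erbb4. The 19 fragile site genes, led by Dlg2 and Lsamp, had 19.6 sites per Mb and a ratio of 1.17 ± 0.009, with 9 above and 7 below. On the mean over the libraries, each list in this paragraph had a lower ratio than the 1.185 ± 0.006 of all long genes. Of all long genes, 60.0% were above and 26.5% below. For shared sites, however, the fragile site genes had a ratio of 1.191, against 1.189 for all long genes. In replicate 1 the transcription and RNA-binding factors had 1.20, against 1.19 for all long genes.

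The list drawn up for genes used mainly in other tissues had the lowest ratio of the 12 lists. Its 10 long genes had 15.6 sites per Mb and a ratio of 0.939 ± 0.034, with 4 above and 5 below shorter-gene density in both libraries. Of these 10 genes, 7 had an open promoter in these data, and some, such as Ryr2, were also on another list. The shares over all long genes compared were 60.0% above and 26.5% below. Sgcd, the muscle sarcoglycan, held 17 sites at 16.0 per Mb. Arhgap15, a Rac-regulating protein of blood cells, had the most sites of this list, 20 or 31.7 per Mb, and no promoter peak in either library. Of all 218 long genes, 198 had an open promoter in both libraries and 8 in neither. The median density was 23.1 sites per Mb in genes with the open promoter (n = 197) and 18.8 in the others (n = 18), over genes with 300 kb or more of eligible intron, and the ranges overlapped (1.47 to 65.8 and 0 to 32.7).

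Sites lay along the whole of these genes. Positions, gaps and clusters here leave out the 7 records that contain 3 or more other protein-coding records, such as Gm20388 and Fgfr2. Over 210 genes, the density was 20.1 sites per Mb in the first of 10 equal parts of the gene record and 26.9 in the last, the highest of the 10, and between 20.4 and 23.9 in the parts between them. Neighbouring sites of a gene were a median of 25.4 kb apart, and 9.51% of the gaps were under 2 kb. With all long-gene sites counted, the median site lay 35.1 kb from the nearest annotated start. The distance was 18.3 kb in genes of 100 to 500 kb and 7.65 kb in genes under 100 kb. The closest clusters in the other records were in Kirrel3, with 10 sites in 50 kb, and in Auts2 and Fars2, with 9 each. Ntm, Pde4b and Trpm3 followed with 8 each (genes chosen after their values were seen).

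**Figure D3:**
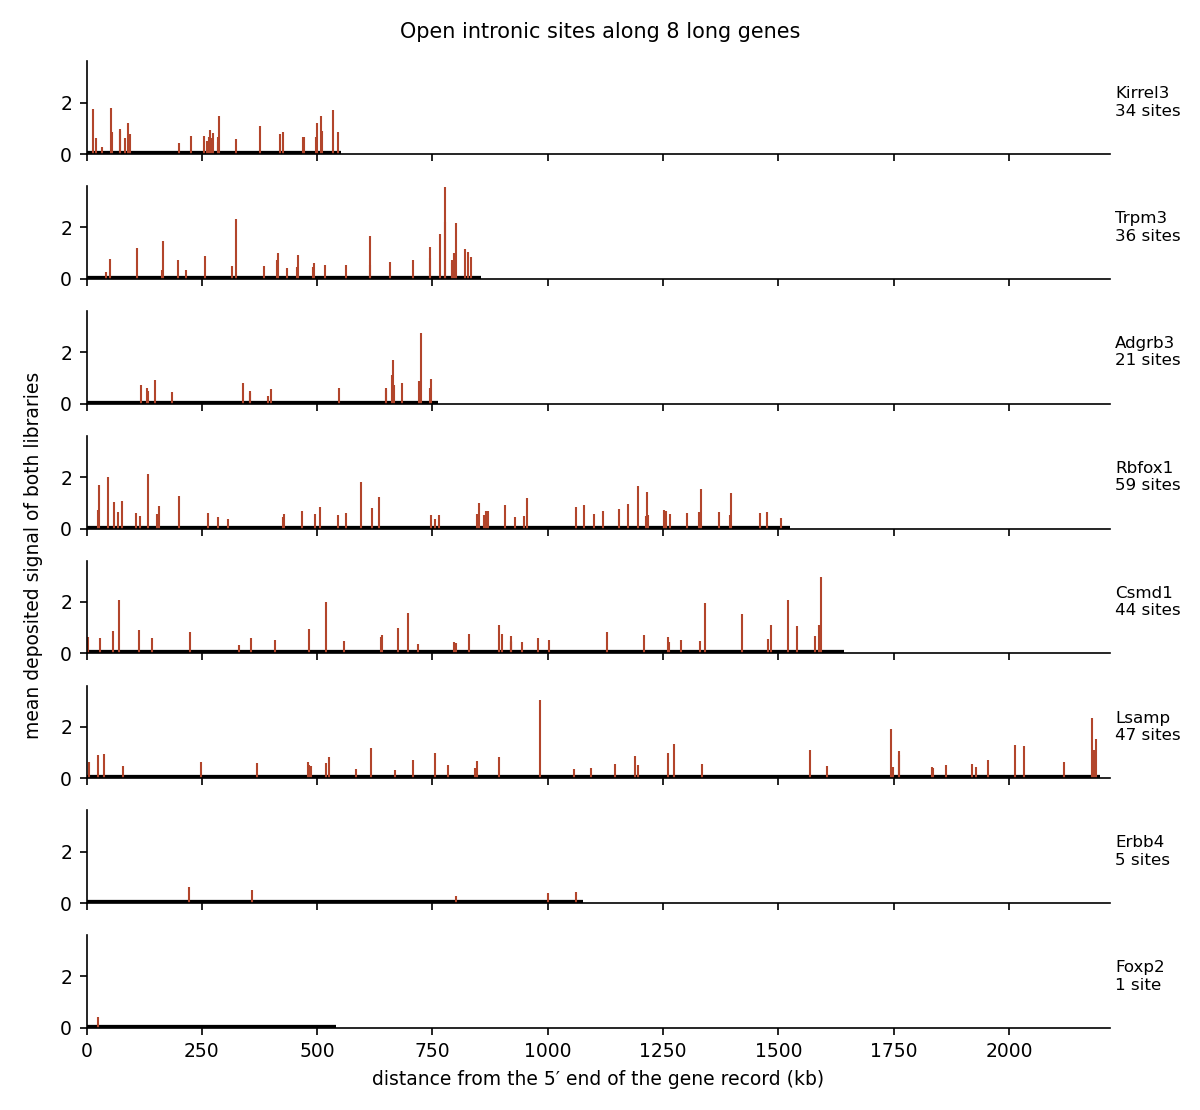
Each panel is a long gene, drawn as a black bar from its 5′ end in kb, with a line at each open intronic site whose height is the mean deposited signal of both libraries. Sites crowd along Kirrel3 and near the 3′ ends of Trpm3 and Adgrb3, while Erbb4 has 5 low sites over 1076 kb and Foxp2 has 1 (genes chosen after their values were seen).

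Long-gene sites were weaker than other intronic sites in both libraries. Their median deposited signal was 0.551 for replicate 1 and 0.692 for replicate 2, and these stood against 0.666 and 0.803 in shared intronic sites of shorter genes. The ratio of medians was 0.827 in replicate 1 and 0.861 in replicate 2, and 0.844 ± 0.024 over the libraries (SD, n = 2). Of the long-gene sites, 27.9% fell in the lowest quintile of replicate 1 signal over all shared peaks and 7.17% in the highest, against 16.2% and 11.3% of other intronic sites. The middle part of their range ran from 0.406 to 0.800 in replicate 1 and from 0.485 to 1.01 in replicate 2 (quartiles).

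The 2 libraries ranked the sites alike. Over the 4172 sites the log2 signals had a Pearson correlation of 0.851 and the signals a Spearman correlation of 0.829, and the sites share peak calling and sequence between the libraries. The median log2 ratio of replicate 2 to replicate 1 was 0.27, and 98.5% of sites lay within 2-fold of it. The farthest from it were a site in Pcdh15 on the high side and 1 in A830018L16Rik on the low side (chosen after their values were seen). Other intronic sites were alike, with a Pearson correlation of 0.857, a Spearman correlation of 0.836 and 98.5% of sites within 2-fold of their median ratio.

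**Figure D4:**
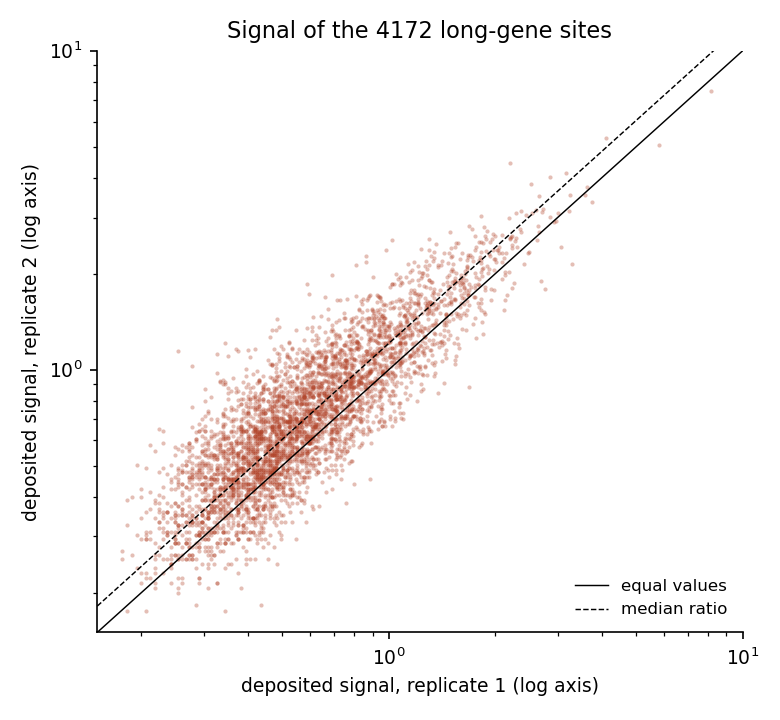
Each point is a long-gene site, with the deposited signal in replicate 1 on the x axis and in replicate 2 on the y axis, both log axes. Points lie along the median ratio, with the site of the Gm20388 record highest at 8.13 and 7.47.

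The strongest sites were few and mixed in kind. The site of the Gm20388 record printed first had 8.13 in replicate 1 and 7.47 in replicate 2. It has 60.4% GC and lies between genes contained in that record, 4857 bp from the nearest RefSeq transcript start, that of the autophagy gene Map1lc3b. Next came a site of the Gm42416 record in the protocadherin cluster of chromosome 18 (5.81 and 5.07) and the printed Camta1 site with the CTCF motif (4.11 and 5.31), 2152 bp from a RefSeq start of Camta1. Other sites among the 10 strongest lay deep in single genes, such as those in the RNA-binding protein gene Celf2 (3.75 and 3.36), 79.9 kb from the nearest annotated start, in Trpm3 (3.58 and 3.54) and in Pde4d (3.24 and 3.54). The Trpm3 site lay 795 bp from a predicted RefSeq start that GENCODE M21 does not list. The Rasgef1b site (2.85 and 4.03) and 2 further sites of the Gm20388 record (3.63 and 3.73, and 2.20 and 4.44) and the strongest of the Fgfr2 record (3.17 and 4.13) complete the 10. RefSeq starts within 500 bp were found at 34 long-gene sites (0.815%), against 321 other intronic sites (1.84%). Among the weakest sites, 4 in Sgcd, Cntnap5b, Lhfpl3 and Agbl1 had 0.176 to 0.218 in replicate 1 and 0.175 to 0.254 in replicate 2, and none of these 4 held a footprint in either library.

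Most long-gene sites held a footprint in both libraries. The share was 71.9% (Wilson 95% interval 70.5 to 73.3%, 3001 of 4172), beside 75.5% of all shared peaks and 77.4% of other intronic sites. Within quintiles of replicate 1 signal the share was 39.6, 70.1, 89.4, 96.2 and 98.3% in long-gene sites, against 38.9, 68.2, 85.3, 94.9 and 99.0% in other intronic sites. The intervals overlapped in every quintile but the middle one, where long-gene sites held a footprint in both libraries more often. In that quintile long-gene sites were also wider, at a median of 220 bp against 205 bp, and the effect of width was not tested. The sites with the most footprints were in Csmd1, with 9 in replicate 1 and 8 in replicate 2, in Kalrn (8 and 7), St6galnac3 (7 and 8), Kcnd2 (8 and 7) and Lingo2 (7 and 6). These were wide sites of 360 to 560 bp. The smaller, stricter peak lists of both libraries held 2050 of the sites (49.1%), beside 51.5% of other intronic sites and 58.4% of all shared peaks. Of the replicate 1 peaks that met the other parts of the rule, 84.2% overlapped a replicate 2 peak, beside 81.8% of all replicate 1 peaks. By class the share was 84.2% in long genes, against 84.4% in genes of 100 to 500 kb and 82.1% in genes under 100 kb. In the other direction, 53.7% of the replicate 2 peaks of long genes overlapped a replicate 1 peak (52.6 to 54.8%). The shares were 57.5% in genes of 100 to 500 kb and 59.0% in genes under 100 kb. Overlap is a step of the rule, so these shares only describe how the sites were chosen.

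Long-gene sites held the CTCF motif less often than other intronic sites, and the neuronal E-box more often than sites of genes under 100 kb. Motifs were searched on both strands in the central 200 bp of each site, and the unspecified letters of the CTCF consensus leave room for an E-box. The CTCF consensus was in 6.42% of long-gene sites (5.72 to 7.21%, 268 of 4172), beside 8.8% of all shared peaks, and in 10.4% of other intronic sites (9.97 to 10.9%). By length of the gene the share was 6.42% at 500 kb or more, against 8.14% at 100 to 500 kb (7.64 to 8.67%) and 14.1% under 100 kb. It was lower in long genes in every quintile of signal, from 3.78% against 7.28% in the lowest to 10.0% against 12.8% in the highest, where the intervals overlap. It was also lower in every quintile of the GC content of the 200 bp, from 6.13% against 11.8% in the lowest to 8.70% against 9.96% in the highest, where the intervals again overlap. Of the 271 CTCF matches in long-gene sites, 181 (66.8%) lay in footprints of both libraries, as in the printed Camta1 and Fgfr2 sites. In replicate 1 the median signal was 0.660 with the motif and 0.539 without it, and in replicate 2 it was 1.03 with and 0.668 without.

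The neuronal E-box was in 21.8% of long-gene sites (20.6 to 23.1%, 910 of 4172), beside 14.7% of all shared peaks, and in 18.98% of other intronic sites (18.4 to 19.6%). By length of the gene the share was 21.8% at 500 kb or more, against 20.1% at 100 to 500 kb (19.3 to 20.8%), where the intervals overlap, and 17.2% under 100 kb (16.4 to 18.2%). The letters of the E-box in reverse order were in 0.791% of long-gene sites. The gap was widest among strong sites: in the highest quintile of signal 30.1% of long-gene sites held the E-box (25.2 to 35.5%), against 20.3% of other intronic sites (18.6 to 22.1%). In the lowest 3 quintiles the intervals overlapped. Within quintiles of the GC content of the 200 bp the shares were 25.5% against 22.0% in the lowest and 17.0% against 15.6% in the highest, and in the fourth they were 17.96% against 17.98%. The intervals overlapped in all 5 GC quintiles. An E-box site was present in 200 of the 214 genes and a CTCF site in 124.

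**Figure D5:**
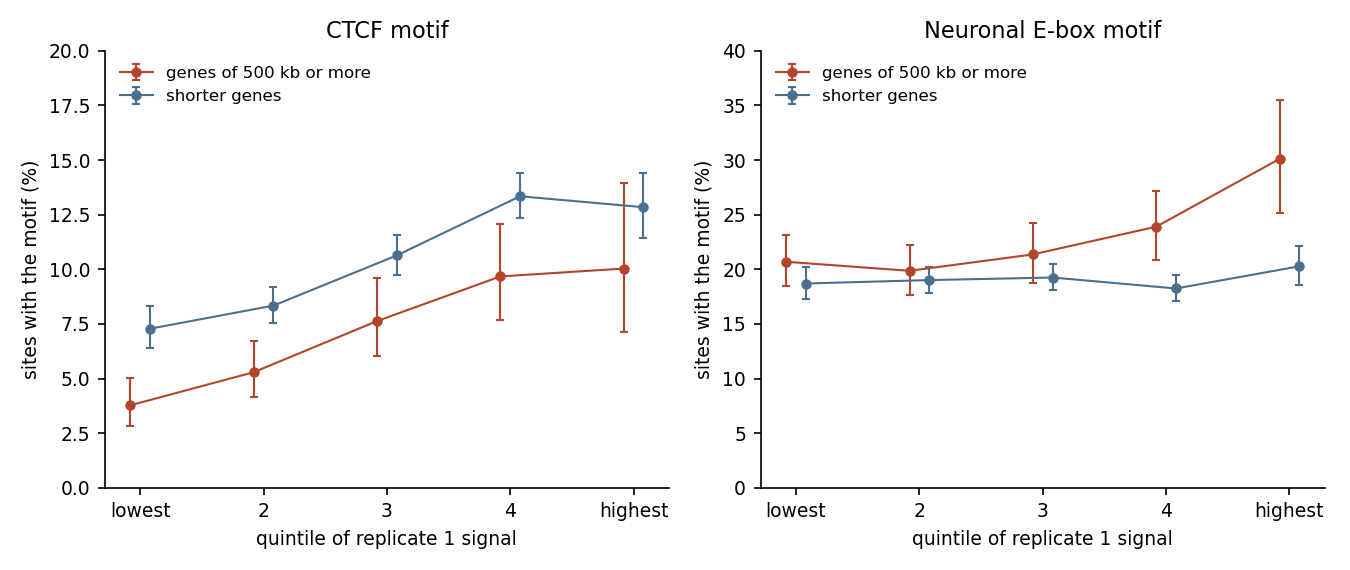
Points give the share of sites (%) with the CTCF motif, left, and the neuronal E-box, right, within quintiles of replicate 1 signal, for long genes and shorter genes, with Wilson 95% intervals. The CTCF share is lower in long genes in each quintile, and the E-box share separates in the upper quintiles, reaching 30.1% against 20.3%.

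Motif counts in single genes were small, and whether genes differed beyond counting error was not tested. The genes given here are examples. Dab1 had the E-box in 17 of 40 sites and CTCF in 0, Rbfox1 had them in 17 and 6 of 59 sites, and Csmd1 in 10 and 0 of 44. Pde4d had the E-box in 3 of 35 sites. For CTCF in Csmd1, 0 of 44 sites allows a share of up to 6.82%, taking 3 counts as the limit. Among the other 12 motifs, AP-1 (TGACTCA) was in 8.94% of long-gene sites, against 8.86% of other intronic sites, beside 7.11% of all shared peaks, and 38 of its 398 matches lay in footprints of both libraries. The POU consensus ATGCAAAT was in 1.77% against 1.28%, beside 1.42% of all shared peaks, and the homeobox letters TAATTA in 5.85% against 4.60%, beside 3.88%. RFX was in 20 long-gene sites (0.479% against 0.567%, beside 0.522%) and MEF2 in 22 (0.527% against 0.493%, beside 0.416%). The ETS consensus was in 10 (0.240% against 0.172%, beside 1.36%). The nuclear receptor letters TAGGTCA were in 1.08% against 1.02% (beside 1.02%), the SOX letters ACAATGG in 2.71% against 2.92% (beside 2.46%) and the CRE letters TGACGTCA in 0.288% against 0.338% (beside 0.931%). The letters in reverse order were more frequent than the motif itself in long-gene sites for ETS (25 sites), for the nuclear receptor letters (93) and for CRE (43). Those of the homeobox were in 160 sites, where 244 held the motif itself, those of AP-1 in 152 against 373 and those of SOX in 87 against 113. NFI (TTGGC and GCCAA with 5 free letters between) was in 3 long-gene sites, beside 0.08% of all shared peaks, EGR (GCGTGGGCG) in 1, beside 0.366%, and NRF1 in 0, beside 0.425%. By the same limit of 3 counts, 0 of 4172 allows a share of up to 0.0719%.

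The values just inside and just outside the limits of the rule overlapped. The shortest genes inside it were Edil3 at 502 kb with 10.3 sites per Mb and Dock1 at 503 kb with 34.3, and the longest outside it were Pde1c at 499 kb with 21.6 and Dnm3 at 496 kb with 28.1. The nearest sites beyond 2 kb from a start were in Dscam and Grm5 at 2013 bp (0.424 and 0.461, and 1.08 and 1.34), and the nearest excluded peaks in Csmd3 at 1992 bp (1.22 and 1.47) and Fars2 at 1987 bp (0.321 and 0.406). The limit took out 605 of 4777 shared non-exonic peaks of long genes.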

How the data were processed

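DNase-seq peaks, footprints and base-level calls of 2 hippocampal libraries were used. Per the labels, the alignments were to mm10 and each library has its own files, which were not pooled. No aligner, peak caller, footprint tool or version is named there or in the file headers. Reads of an F1 cross were placed on 1 reference, with an effect that was not tested. For each peak the authors deposited a signal of 0 or more, with no stated scale. Divided by a library's step, 100% of these signals came out whole to within 0.05. The base-level files deposited hold false discovery rates, below 0.05 only. The deposited footprints all carry the p-value type threshold 0.01, so they were not ranked.

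Peaks overlapping by at least 1 bp counted as shared. Genes, exons and transcript starts came from GENCODE M21, and sequence and further starts from RefSeq GRCm38.p6. A site in several genes counted for the longest. Eligible intron is assembled sequence on chromosomes 1 to 19 that meets the same rule as the sites. A base or site of shorter genes is one whose longest protein-coding record is under 500 kb. The libraries share 1 group, so no test between conditions was possible. Densities and ratios are given per library as mean ± SD and shares with Wilson 95% intervals, which cover counting error only. For the GC comparison, eligible bases were put in quintiles by the GC content of their 10 kb bin.

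The gene groups, the motifs and the sites themselves were chosen with earlier results of these data known. The named genes were the 10 with the most sites, the 10 highest and 5 lowest in density with 300 kb or more of eligible intron, those with 0 sites, the 2 with the most sites per role list and 2 on either side of the length limit. The named sites were the 10 strongest by signal scaled to each library's median, the 5 weakest and the 5 with the most footprints. Some genes and sites that this rule names are not reported here. Counting was tested on simulated data. Python 3.11.15, numpy 2.4.6, pandas 2.3.3, scipy 1.17.1 and matplotlib 3.10.9 were used. Alternatives were another overlap, the smaller peak lists, other limits of gene length and start distance, coordinates from replicate 2, each replicate left out, records without contained genes and quintiles of GC content.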

Additional observations from a re-analysis of the deposited data

Results flagged for a closer look

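Chromosome X lies outside the rule and was not used in any comparison above. The same steps found 54 shared intronic sites in 12 protein-coding genes of 500 kb or more on that chromosome, above the 3 counts that a count of 0 allows. They lay over 10.6 Mb of eligible intron, at 5.08 sites per Mb. The muscle gene Dmd held 10, Frmpd4 and Tenm1 8 each and Diaph2 7, while Dach2 had 0.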

How the results depend on the processing

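A site missed in 1 library leaves the set, and the effect of sequencing depth was not tested. No paired analysis was possible because all libraries belong to a single group. The ratio of long-gene to other density, 0.817 over all bases, was 1.20, 1.23, 1.23, 1.18 and 1.10 within GC quintiles from low to high, and the cause was not tested beyond that division. It was 0.871 for records of 300 kb or more, and 0.811 to 0.883 with each replicate left out. The number of sites was 2049 in the smaller lists, 1664 and 7347 for records of 1 Mb and 300 kb or more, in 55 and 533 genes, and 4954 to 7769 without a replicate. The signal ratio was 0.872 in the smaller lists and 0.816 without records that contain 3 or more other genes. The footprint share was 80.7% with reciprocal overlap and 88.2% in the smaller lists. The share found again was 53.7% from replicate 2 coordinates. The CTCF share was 7.33% with reciprocal overlap, 8.25% in the smaller lists and 5.10 to 5.87% without a replicate. The alternatives gave 365 values of single genes, motifs and density. Of these, 253 stayed within 1.5 times (counts of sites in a gene) or within the spread between the libraries (other values). The rest moved, 41 up and 71 down. These totals do not measure stability alone, because some settings fixed the gene counts in advance. With records of 300 kb or more, every gene count had to stay the same. With records of 1 Mb or more, or without records containing 3 or more other genes, each gene count was kept or dropped whole. Of 35 genes counted, 27 had over 1.5 times as many sites without replicate 1, and 3 without replicate 2.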
